A study of Homo sapiens with 4 samples.

Results

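The interleukin 1 family genes followed here were 10 named ligands and receptors: the ligands IL1A, IL1B, IL18 and IL33, the antagonist IL1RN, and the receptor genes IL1R1, IL1R2, IL1RAP, IL1RL1 and IL18R1. They were found by matching the RefSeq transcript of each probe set to these symbols, which gave 12 probe sets of 45033 on the array and 10 genes of 17185 that could be named. IL1RAP and IL1RL1 had 2 probe sets each and the other 8 members had 1. The samples were cultures of KYSE410, an established human cell line from a squamous carcinoma of the oesophagus, held for 24 h with TNFα (tumour necrosis factor α), with IL1β (interleukin 1β, the protein product of IL1B), with LPS (lipopolysaccharide from the outer membrane of Gram-negative bacteria) or with PBS (phosphate-buffered saline, the solvent control). All 4 cultures shared the same serum-containing medium with antibiotics, and no dose was given in the labels. The study screened for messenger RNAs that respond to inflammatory stimuli. Each condition was measured on 1 single-colour NimbleGen array, so the values below carry no replicate error, no test was possible, and precision is limited by the number of arrays.

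Interleukin 1 family ligands are cytokines of the first inflammatory response, and epithelia of the skin and the upper digestive tract are known producers of several of them. IL1A and IL1B bind the receptor IL1R1, which then recruits the accessory chain IL1RAP and signals through MYD88 and the IRAK kinases to NF-κB. IL1RN occupies IL1R1 without recruiting IL1RAP, and IL1R2 binds ligand without signalling, so both restrain the pathway. IL18 signals through IL18R1 and its partner IL18RAP, and IL33 through IL1RL1 (also called ST2) with IL1RAP. The precursors of IL1B and IL18 are cut to their active forms by caspase 1.

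The starts of IL1B and IL1RN are shown because these were the members at least 2-fold different from PBS with each stimulus. The sequences are the 250 bases before the listed starts in RefSeq, assembly GRCh38.p14, written 5′ to 3′ along the strand of the gene. IL1B lies on the minus strand (chr2:112836780-112837029) and has 1 listed start. IL1RN lies on the plus strand and has 3, of which the first (chr2:113117721-113117970) and the second (chr2:113127239-113127488) are printed. The third start lies 109 bases downstream of the second. Which start gives the transcript that the IL1RN probe set detects was not tested. Capitals mark matches on either strand to the NF-κB type letters GGGANTTTC, the AP-1 type letters TGANTCA, the C/EBP type letters TTNNGNAA or the TATA box letters TATAAA, and no marked matches overlap in the printed windows.
IL1B: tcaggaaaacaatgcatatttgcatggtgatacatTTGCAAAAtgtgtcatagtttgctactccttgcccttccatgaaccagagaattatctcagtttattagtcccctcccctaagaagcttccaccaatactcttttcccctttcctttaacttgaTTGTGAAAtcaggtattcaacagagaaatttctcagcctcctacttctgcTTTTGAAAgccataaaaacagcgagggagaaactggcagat
IL1RN, first start: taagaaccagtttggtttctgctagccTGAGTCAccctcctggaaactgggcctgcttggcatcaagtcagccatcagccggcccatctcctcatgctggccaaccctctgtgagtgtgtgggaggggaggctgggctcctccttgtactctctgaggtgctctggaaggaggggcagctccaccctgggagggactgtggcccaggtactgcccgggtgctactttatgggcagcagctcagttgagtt
IL1RN, second start: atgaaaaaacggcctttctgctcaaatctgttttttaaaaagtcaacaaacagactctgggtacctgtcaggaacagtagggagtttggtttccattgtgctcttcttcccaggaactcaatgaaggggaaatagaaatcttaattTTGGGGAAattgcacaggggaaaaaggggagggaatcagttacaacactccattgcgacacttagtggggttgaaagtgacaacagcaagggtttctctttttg

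The IL1B window held 3 matches to the C/EBP type letters and none to the other sets. The first IL1RN window held 1 match to the AP-1 type letters. The second held 1 match to the C/EBP type letters. The third IL1RN window, not printed, held 3 matches to the C/EBP type letters and 2 to the TATA box letters, some of them overlapping. Among 35116 windows of the same length before RefSeq starts, 1.12% held the NF-κB type letters, 6.57% the AP-1 type, 33.2% the C/EBP type and 10.7% the TATA box letters. A looser NF-κB pattern was 3 G then any 5 bases then 2 C on either strand. It matched at 3 places in the first IL1RN window and none in the others printed, and at 1 place in the third IL1RN window. However, 54.4% of all windows held it. These matches describe letters in a short window and say nothing of binding in these cells.

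Most of the family was dim in KYSE410 cells. Values are RMA intensities, a summary of usually 3 probes on a linear arbitrary scale, and log2 of it where stated. Of the 10 genes 3 reached the floor of 260.5 on any array, namely IL1B, IL1RN and IL18. The floor is the median gene, 8.02 on the log2 scale, and lies 4.68 times above the mean of a control set of 5000 random-sequence probes. IL18 alone reached it on all 4 arrays. A value is called near background where it lay under 2 times the random control set of its array, a limit of 111.6 with TNFα, 112.3 with IL1β, 112.9 with LPS and 108.2 with PBS. IL1A, IL33, IL1RL1 and IL18R1 were near background on all 4 arrays by every probe set they had. The number of members near background was 4 with TNFα, 6 with IL1β, 6 with LPS and 6 with PBS.

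**Figure D1:**
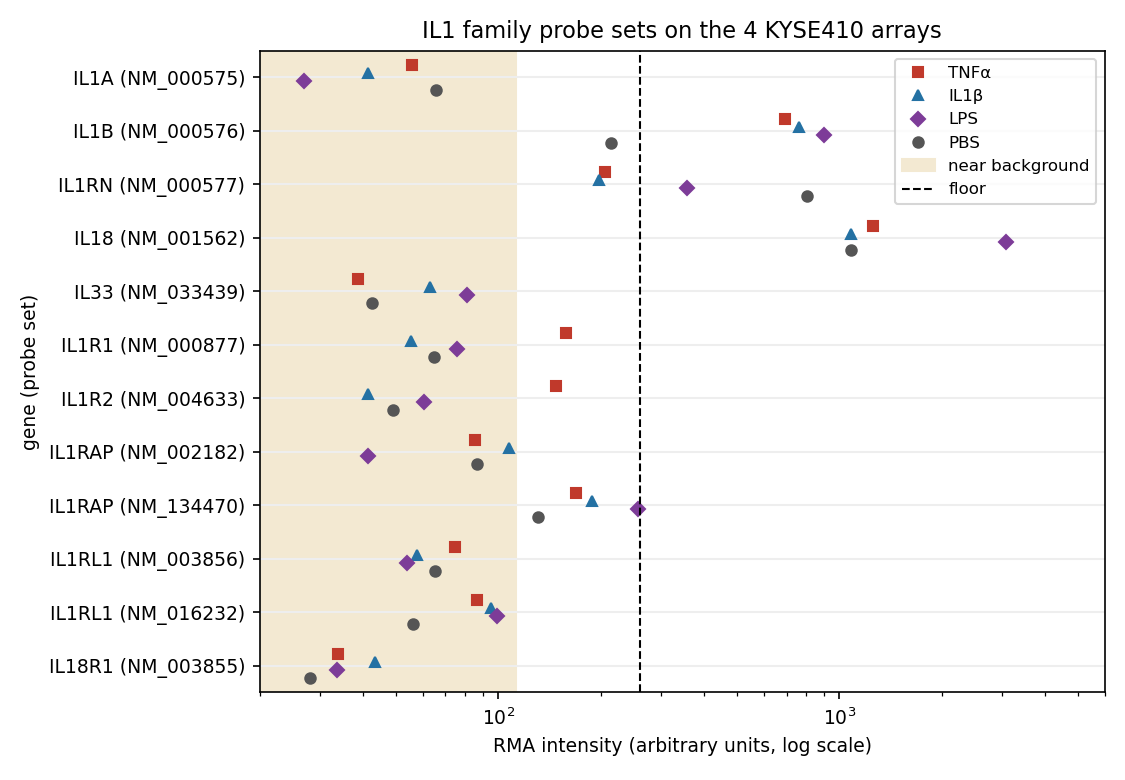
RMA intensity (arbitrary units, log axis) of each of the 12 IL1 family probe sets, 1 point per array, coloured by stimulus, with the near-background zone shaded and the floor of 260.5 dashed. IL1B, IL1RN and IL18 are the genes with points right of the floor, and PBS is the lowest of the 4 points for IL1B and the highest for IL1RN.

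IL1B, the secreted pyrogenic ligand, was higher with each stimulus. Its intensity was 691.4 with TNFα, 759.7 with IL1β and 903.9 with LPS, against 213.4 with PBS. The stimulated arrays lay close together and the PBS array lay below all of them. Relative to PBS, IL1B was 3.24-fold higher with TNFα (log2 difference 1.70), 3.56-fold higher with IL1β (1.83) and 4.24-fold higher with LPS (2.08). The PBS value was below the floor but 3.94 times the random control set, so it was not near background. Among 17185 genes the IL1B difference ranked 144th from the highest with TNFα, 96th with IL1β and 182nd with LPS. The cells of the IL1β array had been given the protein that this gene encodes. In RNA from whole cultures, more cells with the transcript and more transcript per cell cannot be told apart.

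IL1RN, the receptor antagonist, ran the other way. Its intensity was 205.7 with TNFα, 197.2 with IL1β and 358.0 with LPS, against 802.3 with PBS. The PBS array was the highest of the 4, and the LPS array lay between it and the 2 cytokine arrays. The TNFα and IL1β values were below the floor. They were 3.69 and 3.51 times the random control set, so neither was near background. IL1RN was 3.90-fold lower with TNFα (log2 difference -1.96), 4.07-fold lower with IL1β (-2.02) and 2.24-fold lower with LPS (-1.16). In rank from the lowest of all genes it was 76th with TNFα, 71st with IL1β and 888th with LPS. The change of IL1B exceeded that of IL1RN by 3.66 on the log2 scale with TNFα, 3.86 with IL1β and 3.25 with LPS. Such a difference of differences shows unequal change of the 2 probe sets and gives no ratio of the 2 transcripts.

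IL18, a ligand that many epithelia carry at rest, was above the floor on every array and differed with LPS. Its intensity was 1253 with TNFα, 1079 with IL1β and 3072 with LPS, against 1084 with PBS. The LPS array stood alone and the other 3 lay within 1.16-fold of each other. IL18 was 2.83-fold higher with LPS than with PBS (log2 difference 1.5), while its log2 difference was 0.21 with TNFα and -0.01 with IL1β. Among 17185 genes its difference with LPS ranked 510th from the highest.

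A size rule asked for a difference of 2-fold or more whose brighter value reached the floor. By this rule 1 of the 10 members was higher and 1 lower with TNFα, and the same counts held with IL1β. With LPS 2 were higher and 1 lower. Over all genes that reached the floor on one of the arrays compared, the shares were 3.37% higher and 3.4% lower with TNFα, 3.13% and 3.57% with IL1β, and 8.83% and 7.42% with LPS. Only the 3 members at the floor could pass. IL1B passed through its stimulated values, and IL1RN passed through its PBS value with TNFα and IL1β. These counts thus say little beyond the values above. The median log2 difference of the 10 members was 0.32 with TNFα, 0.26 with IL1β and 0.56 with LPS, beside -0.03, -0.03 and 0.02 over all genes. Most of the values behind those medians came from dim genes. IL1B was 1 of 83 genes higher with every stimulus (0.808% of 10271 genes at the floor on any array), and IL1RN was 1 of 108 genes lower with every stimulus (1.05%).

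**Figure D2:**
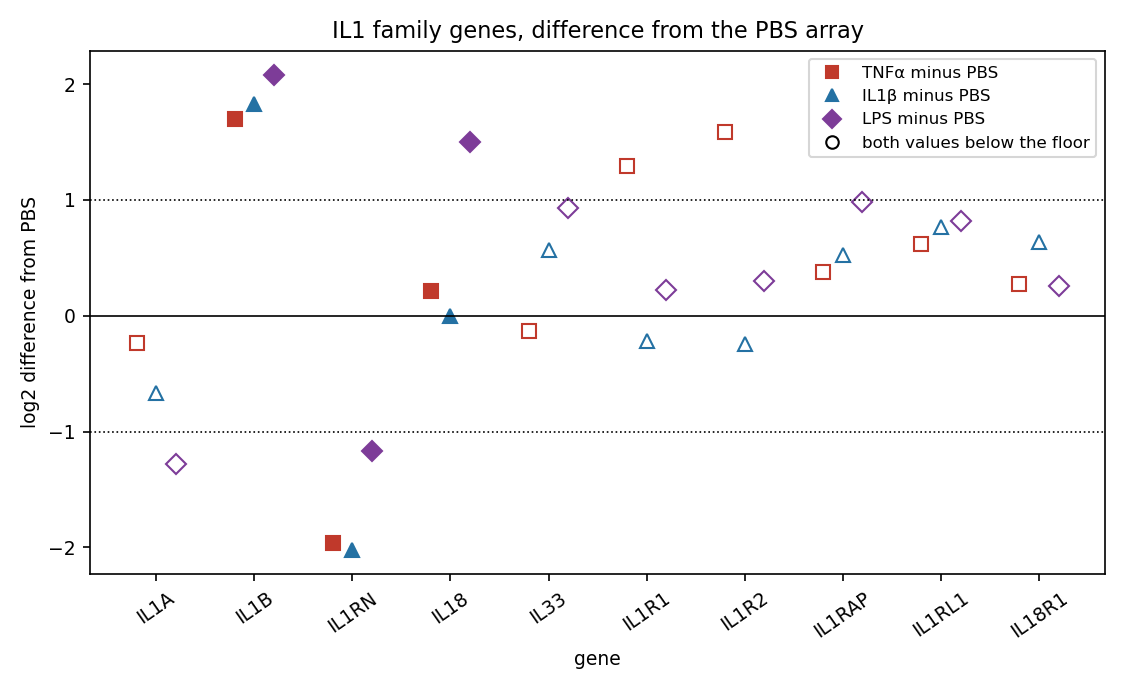
Log2 difference of each stimulated array from the PBS array for the 10 members, with filled points where the brighter value reached the floor and dotted lines at 2-fold. IL1B is above and IL1RN below the dotted lines with each stimulus, and IL18 is above with LPS only.

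The 3 comparisons share the single PBS array, so a PBS value that was off for IL1B or IL1RN would appear in each of them. Comparisons between stimuli do not use that array. IL1B differed between stimuli by at most 0.39 on the log2 scale, which was LPS minus TNFα. IL1RN was 0.80 higher with LPS than with TNFα and 0.86 higher with LPS than with IL1β, both under 2-fold, and differed by 0.06 between TNFα and IL1β. IL18 was 2.45-fold higher with LPS than with TNFα, where 9.93% of genes at the floor were higher and 7.09% lower, and 2.85-fold higher with LPS than with IL1β, where 10.5% were higher and 7.45% lower. No member passed the size rule between TNFα and IL1β, where 1.87% of genes were higher and 1.74% lower.

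IL1A and IL33 are alarmins, released from damaged cells. IL1A had intensities of 55.7 with TNFα, 41.4 with IL1β and 27.0 with LPS, against 65.5 with PBS. IL33 had 38.8 with TNFα, 62.9 with IL1β and 80.8 with LPS, against 42.5 with PBS. Every one of these values was near background, so neither gene has a fold.

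Both receptors that bind IL1 ligands directly had their highest intensity on the TNFα array. IL1R1, the signalling receptor, had an intensity of 158.2 with TNFα, 55.6 with IL1β and 75.6 with LPS, against 64.7 with PBS. IL1R2, the decoy receptor, had 147.3 with TNFα, 41.5 with IL1β and 60.6 with LPS, against 49.1 with PBS. For both genes the TNFα value was above the near-background limit and the other 3 were under it. Counted against that limit, IL1R1 was at least 1.46-fold and IL1R2 at least 1.36-fold higher with TNFα than with PBS. Neither reached the floor, so neither passed the size rule. Against the IL1β array the same bounds were at least 1.41-fold for IL1R1 and at least 1.31-fold for IL1R2.

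The accessory chain IL1RAP, shared by the receptors for IL1 and IL33, was measured by a pair of probe sets. The brighter one, for NM_134470, had an intensity of 169.5 with TNFα, 188.5 with IL1β and 257.6 with LPS, against 130.8 with PBS. The LPS value stopped just short of the floor, and the difference from PBS was 1.97-fold (log2 difference 0.98). The dimmer one, for NM_002182, had 85.2 with TNFα, 107.3 with IL1β and 41.5 with LPS, against 86.4 with PBS, all near background. Only the first set gives usable differences, and it was under 2-fold with each stimulus. Which transcript forms of IL1RAP each set detects was not tested.

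IL1RL1, the receptor chain for IL33, has a membrane and a soluble form. Its probe set for NM_016232 had 86.6 with TNFα, 95.4 with IL1β and 99.3 with LPS, against 56.2 with PBS. Its probe set for NM_003856 had 74.5 with TNFα, 57.7 with IL1β and 54.1 with LPS, against 65.4 with PBS. IL18R1, the ligand-binding chain for IL18, had intensities of 34.0 for TNFα, 43.6 for IL1β and 33.6 for LPS, against 28.1 for PBS. All of these values lay near background, which bounds the level on these arrays and does not show that the transcripts were missing.

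**Figure D3:**
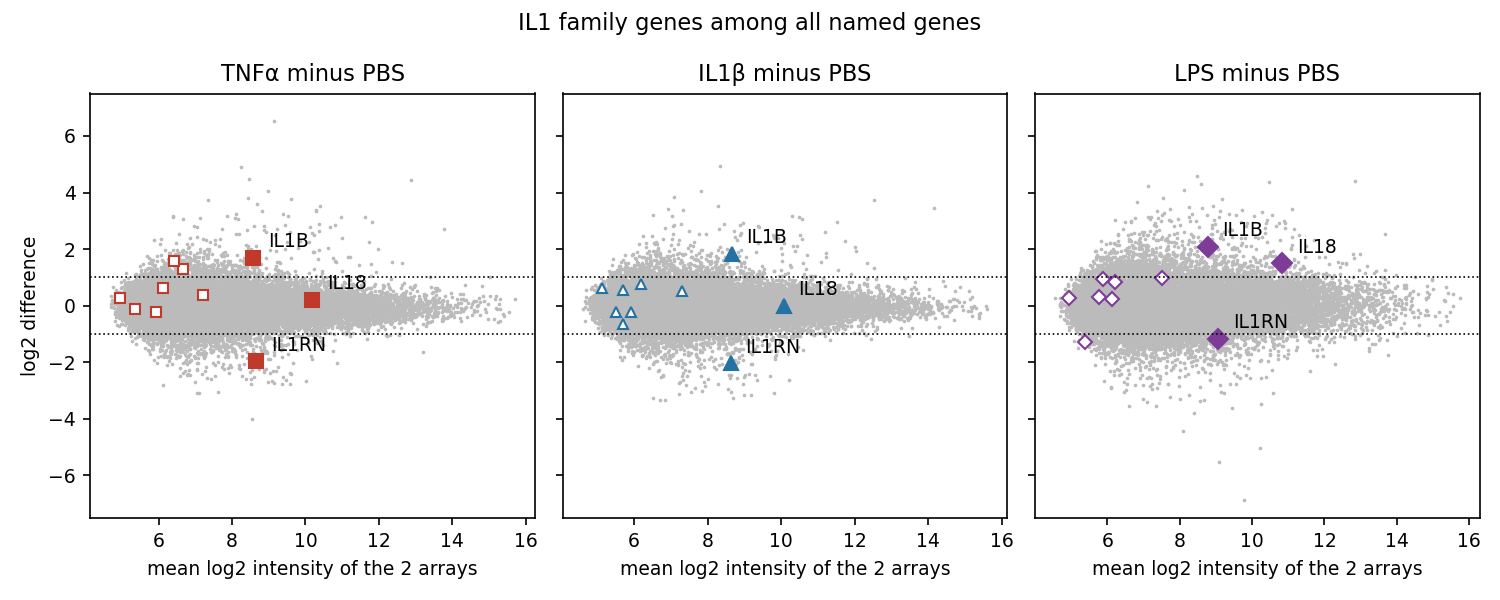
Log2 difference from PBS against the mean log2 intensity of the 2 arrays for all 17185 named genes (grey) and the 10 members (coloured), 1 panel per stimulus, with dotted lines at 2-fold. The filled points are IL1B, IL1RN and IL18, and the open points are the other 7 members, none of which reached the floor.

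The remaining genes of the family were followed as a list of 12, none of which passed the size rule against PBS with any stimulus. Only 4 of the 12 with TNFα, 2 with IL1β and 3 with LPS reached the floor and could pass. The background shares were 3.37% higher and 3.4% lower with TNFα, 3.13% and 3.57% with IL1β, and 8.83% and 7.42% with LPS. So few could pass that these counts are no result about the list. The median log2 difference of the 12 genes was 0.15 with TNFα, 0.20 with IL1β and 0.34 with LPS. IL18BP, the secreted protein that neutralises IL18, was well above the floor, with an intensity of 4543 with TNFα, 4820 with IL1β and 4635 with LPS, against 3951 with PBS. These are the values of the brightest of its 5 probe sets, which differed by 0.23 with LPS on the log2 scale. The other 4 sets were all lower with LPS than with PBS, by log2 differences of -0.87 for NM_001039659, -0.98 for NM_001039660, -0.43 for NM_173044 and -2.02 for NM_173042, the last with an LPS value near background. The sets of IL18BP thus disagreed in direction with LPS. IL36RN, the antagonist of the IL36 receptor, had 317.4 with TNFα, 177.2 with IL1β and 117.5 with LPS, against 163.5 with PBS. Its TNFα value was 1.94-fold above PBS, just short of the rule. IL1RL2, the IL36 receptor chain, had 363.7 with TNFα, 229.4 with IL1β and 395.0 with LPS, against 244.5 with PBS.

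Among 21 measured genes of IL1 receptor signalling, 2 were higher with TNFα, 1 with IL1β and 2 with LPS, and none was lower. The genes of the list that reached the floor in these comparisons numbered 18 with TNFα, 16 with IL1β and 16 with LPS, beside background shares of 3.37%, 3.13% and 8.83% higher, so these counts are small and that for LPS is near its background. IRAK1, the kinase recruited to the receptor complex, had an intensity of 8941 with TNFα, 8685 with IL1β and 9025 with LPS, against 3089 with PBS. It was 2.89-fold higher with TNFα, 2.81-fold with IL1β and 2.92-fold with LPS. The 3 stimulated arrays were nearly equal and PBS was the array that stood apart. IRAK3, an inhibitory member of the kinase family, had 349.6 with TNFα, 141.9 with IL1β and 83.5 with LPS, against 70.3 with PBS, at least 3.23-fold higher with TNFα. PELI2, a ubiquitin ligase of the Pellino family, had 436.7 with LPS against 214.6 with PBS, 2.04-fold higher. MYD88, the adaptor of the receptor, had 447.2 with TNFα, 605.3 with IL1β and 432.8 with LPS, against 775.5 with PBS, under 2-fold in each case. The list's median log2 difference was -0.18 with TNFα, -0.23 with IL1β and -0.21 with LPS.

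The list for inflammasome, processing and release held 24 genes. With TNFα none passed the size rule, with IL1β 1 was lower of 15 at the floor, and with LPS 1 was higher of 14. The background shares were 3.57% lower with IL1β and 8.83% higher with LPS, so neither count is a result about the list. CAPN2, a subunit of the calpains that process pro-IL1A, had an intensity of 1010 with IL1β against 2126 with PBS, 2.11-fold lower. SERPINB1, an inhibitor of neutrophil serine proteases, had 1726 with LPS against 829.4 with PBS, 2.08-fold higher. CASP1, the caspase that cuts IL1B and IL18, had 639.7 with TNFα, 694.2 with IL1β and 911.6 with LPS, against 678.5 with PBS. PYCARD, the adaptor that joins sensors to CASP1, had 524.2 with TNFα, 527.8 with IL1β and 296.5 with LPS, against 489.0 with PBS. These are the values of the brightest of 4 CASP1 probe sets, which did not pass the rule with any stimulus. Another CASP1 set, NM_001223, had 929.6 with LPS against 401.4 with PBS (log2 difference 1.21), past 2-fold and above the floor, while the remaining sets gave 0.10 and 0.58 with LPS. PYCARD did not pass the rule with any stimulus. The median log2 difference over these 24 genes was 0.08 with TNFα, -0.05 with IL1β and -0.23 with LPS.

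**Figure D4:**
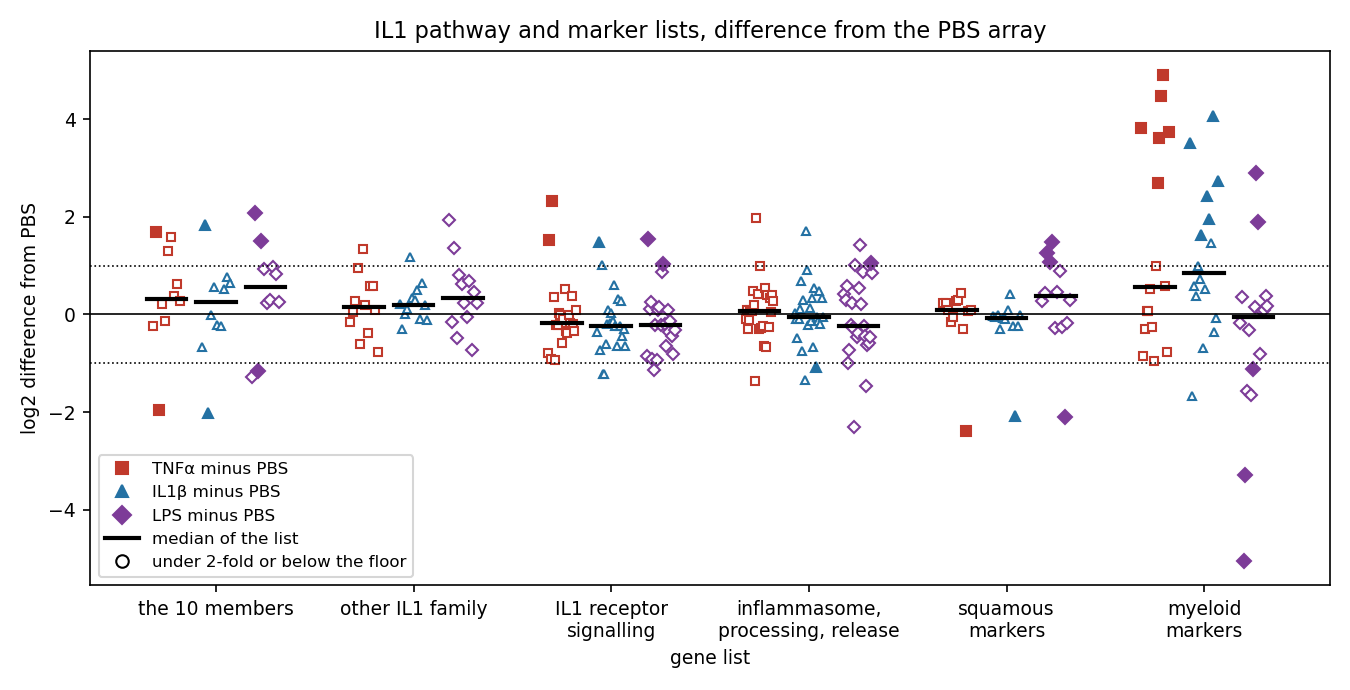
Log2 difference from PBS of every measured gene in 6 lists, by stimulus, with filled points for genes that passed the size rule, black bars for list medians and dotted lines at 2-fold. The IL1 pathway lists centre near 0 with few filled points, and the myeloid markers hold the widest spread.

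Markers of other cell types moved on these arrays and are given because blood cells are a rich source of IL1B. Of 16 myeloid markers 6 were higher with TNFα and 6 with IL1β with none lower, while with LPS 2 were higher and 3 lower. Those that reached the floor in these comparisons numbered 10 with TNFα, 11 with IL1β and 6 with LPS. Over all genes at the floor the shares were 3.37% higher and 3.4% lower with TNFα, 3.13% and 3.57% with IL1β, and 8.83% and 7.42% with LPS. The summed intensity of the 16 markers was 15800 with TNFα, 17254 with IL1β and 3600 with LPS, against 9993 with PBS. LYZ, lysozyme, carried much of that sum, and without it, a step added after the values were seen, the other 15 markers summed to 10200 with TNFα, 6865 with IL1β and 3391 with LPS, against 3076 with PBS. PTPRC, the pan-leukocyte phosphatase CD45, had 1295 with TNFα, 1046 with IL1β and 81.5 with LPS, against 91.5 with PBS. LYZ was 33.1-fold lower with LPS than with PBS. The myeloid markers AIF1 and FCN1 were higher with each stimulus, AIF1 6.45-fold with TNFα, 5.39-fold with IL1β and 7.49-fold with LPS, and FCN1 12.2-fold with TNFα, 3.87-fold with IL1β and 3.73-fold with LPS. A dimmer AIF1 probe set gave log2 differences of 1.28 with TNFα, 0.80 with IL1β and 0.58 with LPS, under 2-fold with IL1β and LPS. AIF1 and FCN1 were the only markers of the 16 that passed the rule upward with LPS, while LYZ, TYROBP and CD68 passed downward. S100A12, FCGR3B and CYBB were highest with TNFα, at 1670, 1649 and 587.7, against 75.7, 55.2 and 44.3 with PBS. Among other markers, LYZ, TYROBP, FCER1G, ITGAM and CSF1R were highest with IL1β and CD68 with PBS. CD14, SPI1 and the brighter set of AIF1 were highest with LPS. The part of these markers in the IL1B, IL1RN, IL1R1 and IL1R2 differences was not tested for any stimulus. The sums of 12 lymphoid markers ranged from 1677 with LPS to 2006 with TNFα, with 1904 for PBS, and those of 7 mast cell markers from 524.5 with TNFα to 918.9 with LPS, with 545.6 for PBS. Without HDC, the gene behind the higher mast cell sum with LPS, the other 6 summed to 389.1 with TNFα, 470.3 with IL1β and 381.6 with LPS, against 359.1 with PBS. Endothelial markers (7 genes) summed to 630.2 with TNFα, 696.0 with IL1β and 856.8 with LPS, against 1026 with PBS. Without PECAM1, the brightest, the other 6 summed to 503.4 with TNFα, 422.2 with IL1β and 782.7 with LPS, against 607.0 with PBS. The LPS sum was then above that of PBS. No marker was listed at 0, since each array gives every probe set a positive value. The line's own squamous markers were bright, with all 12 above the near-background limit on each array and the keratin KRT5 between 48523 with IL1β and 59820 with LPS. Of those 12, CDH1 was lower with each stimulus, and TP63, KRT14 and KRT17 were higher with LPS. No other squamous marker passed the rule against PBS. All 12 reached the floor in each comparison with PBS. Over all genes at the floor, 8.83% were higher with LPS and 1.05% were lower with every stimulus.

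Cardiac muscle genes also set the LPS array apart, with a summed intensity of 51508 with TNFα, 59050 with IL1β and 14739 with LPS, against 38957 with PBS over 8 genes. ACTC1 was the brightest of them. Without it the other 7 summed to 30363 with TNFα, 30273 with IL1β and 1795 with LPS, against 20997 with PBS. MYL7, at 562.2 with LPS against 439.1 with PBS, and NPPA, near background on both arrays, were not lower with LPS. The part of the cardiac muscle genes in the IL18 difference was not tested. The log2 difference of genes at the floor had an SD of 0.52 with TNFα, 0.51 with IL1β and 0.72 with LPS, and 0.37 between TNFα and IL1β. These SDs are across genes and are no replicate error. In 622 genes with at least 2 probe sets at the floor, the 2 brightest sets were compared. Their log2 differences from PBS disagreed with an SD of 0.55 with TNFα, 0.57 with IL1β and 0.70 with LPS. IL1B, IL1RN and IL18 have 1 probe set each, so no such comparison exists for them.

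The genes with the most similar pattern to each member were taken by the distance between their 3 log2 differences from PBS, among 8593 genes with a mean level at the floor. Nearest to IL1B were IRGQ (distance 0.24), the serum- and glucocorticoid-induced kinase SGK1 (0.26) and the interferon γ receptor chain IFNGR2 (0.40). Nearest to IL1RN were the adaptor SH2B3 (0.40), the keratin KRT80 (0.43) and ANKMY1 (0.48). Among the genes nearest to IL18 was the aldose reductase AKR1B1 (0.12). With 4 arrays and 3 differences that share PBS, such likeness is a description of these arrays.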

How the data were processed

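Total RNA from 4 cultures was copied to cDNA and labelled with Cy3, per the labels' protocols. The authors deposited RMA intensity values on a linear scale, 1 per probe set and array, per the file headers and names. RMA usually corrects background, equalises distributions and combines probes, but no label or header names its software or settings. Equalised distributions make every difference relative to the bulk of genes. The deposited series table held intensity values identical to the per-array ones, within 0.0001, for all 45033 probe sets.

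Accessions, stripped of versions, were looked up in RefSeq (GRCh38.p14), and 18866 probe sets had 1 symbol, giving 17185 genes. Each gene was represented by its brightest probe set (mean log2 over the 4 arrays). Log2 differences were computed between pairs of arrays. Samples were grouped by the agent in the labels. With 1 array per condition no test was made. A fold over a near-background value is a bound, taken against the near-background limit. The rule for named genes took all 10 members, up to 4 genes per pathway list and comparison that passed the size rule, and the 3 genes nearest in pattern to each member that passed it; 2 genes so selected are not reported here. IL18BP, IL36RN, IL1RL2, MYD88, CASP1, PYCARD and the cell type markers named were chosen for their roles or after their values were seen. The members and lists were chosen with earlier results of these data known, and the motifs after the values. The size rule and the loess step were tested on simulated data. Alternatives tried were dropping the floor, raising it to the 75th percentile, averaging a gene's probe sets, loess centring, repeated quantile normalization, the series table, an offset of 50.9 before log2, and thresholds of 1.5-fold and 3-fold. Computation used Python 3.11.15 with statsmodels 0.14.6, pandas 2.3.3 and numpy 2.4.6.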

Additional observations from a re-analysis of the deposited data

How the results depend on the processing

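Loess centring, repeated quantile normalization and the offset left the direction unchanged for each IL1B, IL1RN and IL18 difference that passed the size rule. Each stayed past 2-fold. The mean of all probe sets and the series table could not change these differences. Each of the 3 genes has 1 probe set, and the series table held the same values. IL1B ranged from 1.49 to 1.74 on the log2 scale with TNFα, from 1.62 to 1.89 with IL1β and from 1.85 to 2.08 with LPS. IL1RN ranged from -1.96 to -1.73 with TNFα, from -2.02 to -1.78 with IL1β and from -1.20 to -1.06 with LPS, and IL18 from 1.42 to 1.5 with LPS. Some counts of members moved with the floor or at 3-fold, by construction, and none moved at 1.5-fold. Without a floor 3 members were higher with TNFα (IL1R1 and IL1R2 joined) and 2 were lower with LPS (IL1A joined). With the floor at the 75th percentile 0 were higher with TNFα. At 3-fold 1 member was higher and 0 were lower with LPS. Among the other differences of members from PBS, 3 of 115 values moved by over 1.5 times, in IL1RAP, IL1R2 and IL1A, and each of these rests on dim values. The IL1RAP value, -0.04 with LPS for the mean of both probe sets, averages in a set that was near background on every array. No paired analysis was possible because each condition has 1 array. Dim signal limits the 7 of 10 members that never reached the floor, and the single PBS array enters every comparison with a stimulus.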
